A study of Homo sapiens with 6 samples.

Results

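The noncentromeric CENP-A peaks of control cells are the regions listed as CENP-A peaks in siNeg-transfected cells outside a 5-Mb window on each autosome. They were chosen as the peaks of both siNeg CENP-A lists, on chromosomes 1 to 22, with no base in the 5-Mb window per chromosome that had the greatest length under peaks of siNeg CENP-A replicate 1. The rule gave 581 peaks, 442 in replicate 1 and 139 in replicate 3, of 2076 autosomal siNeg CENP-A peaks and of 33656 peaks in all 6 lists of the series. The peaks were thus chosen by their called positions in the siNeg lists, and their number and positions there are given as a description. The lists from siDNAJC9 cells and from IgG were not used by the rule. Peak width was no criterion for single peaks, but the windows were placed by the length of siNeg replicate 1 peaks. The nearest chosen peak lay 10 kb from a window, so peaks of a centromeric domain that extends beyond its window can be included.

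All libraries came from hTERT-RPE1-Tet-GFP-CENP-A, a telomerase-immortalized retinal pigment epithelial line in which DOX induces GFP-tagged CENP-A. Cells were transfected with siNeg, a control siRNA, or with siDNAJC9, an siRNA against DNAJC9, for 48 h, and were then given 1 µg/ml DOX for a further 48 h. The control cells thus also carried induced GFP-CENP-A, and no library came from cells without DOX. For each siRNA, the CENP-A antibody gave replicates 1 and 3, described by the submitters as biological repeats, and IgG, a control antibody, gave replicate 2. The antibody detects CENP-A, so endogenous and GFP-tagged CENP-A cannot be told apart.

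CENP-A is the histone H3 variant that replaces H3 in the nucleosomes of centromeres, where it provides the base on which the kinetochore is built. The chaperone HJURP deposits it there, and CENP-A in excess can enter the chromosome arms through chaperones that normally handle H3. DNAJC9 is a J-domain co-chaperone that binds histones H3–H4 and recruits HSP70 proteins. CUT&RUN maps such proteins with an antibody that directs a nuclease to the chromatin around it, and the released DNA is sequenced.

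The lists name a chromosome, a start and an end on T2T-CHM13v2.0, all in whole kb, with no height or read count. They tell only where a peak was listed, and library depth is unknown. Within each siRNA, the CENP-A and IgG peaks were called relative to one additional IgG library, so the 3 lists share a control.

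Control cells had few noncentromeric CENP-A peaks beside siDNAJC9 cells, and these were short. In replicate 1, 34.9% of autosomal CENP-A peaks were noncentromeric (442 of 1266, 95% Wilson interval 32.3 to 37.6%), and in replicate 3, 17.2% (139 of 810, 14.7 to 19.9%). The same share was 95.04% and 94.46% in the siDNAJC9 replicates, with 10699 and 8409 peaks. The control peaks covered 2.487 and 0.842 Mb, which is 0.0893% and 0.0302% of the 2785.67 Mb outside the windows, against 80.4 and 59.3 Mb for siDNAJC9. The IgG lists, from a single library per siRNA, held 4047 noncentromeric peaks (23.2 Mb) with siNeg and 6730 (40.4 Mb) with siDNAJC9. The control antibody thus had more listed peaks in siNeg cells than CENP-A had, and more with siDNAJC9 than with siNeg. Wilson intervals here and below cover counting error only.

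The mean number of noncentromeric peaks was 290.5 ± 214 (SD, n = 2) with siNeg and 9554 ± 1619 with siDNAJC9, a difference of 5.04 on the log2 scale. This is given with no test, since the rule used the positions of the siNeg peaks. The siNeg replicates differed from each other on every chromosome, replicate 1 having more peaks than replicate 3 on 22 of 22.

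Neighbouring control peaks were further apart than those of the lists with more peaks. The median gap from a peak to the nearest other peak of its own list was 1.656 Mb in replicate 1 and 7.021 Mb in replicate 3, against 0.037 and 0.047 Mb for siDNAJC9. In the siNeg and siDNAJC9 IgG lists it was 0.208 and 0.084 Mb. Of the 442 and 139 peaks, 28 (6.33%) and 13 (9.35%) had another peak of the list within 100 kb. Of siDNAJC9 peaks, 75.9% and 69.4% did. A list with fewer peaks has wider gaps by its size alone. Whether control peaks were more or less clustered than their number implies was not tested.

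Most control peaks had the least width in the lists, 5 kb. Of the 442 peaks of replicate 1, 301 were 5 kb and 74 were 6 kb wide, and of the 139 of replicate 3, 84 were 5 kb and 22 were 6 kb wide. Peaks of 5 to 6 kb thus made up 84.8% (81.2 to 87.9%) and 76.3% (68.5 to 82.6%) of the control lists, against 45.4% and 52.4% of the siDNAJC9 lists. The control mean was 80.6 ± 6.07% (SD, n = 2), or 31.6 percentage points above that of siDNAJC9, and the libraries did not overlap (exact two-sided permutation test over libraries, p = 0.333). With 2 libraries against 2, 0.333 is the smallest p this test can give, so no comparison between siRNAs could pass 0.05.

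Wide peaks were rare. Peaks of 10 kb or more numbered 8 in replicate 1 (1.81%, 0.920 to 3.53%) and 7 in replicate 3 (5.04%, 2.46 to 10.0%), and made up 13.5% and 9.25% of the siDNAJC9 lists. The mean difference was -7.94 percentage points (siNeg 3.42 ± 2.28%, siDNAJC9 11.4 ± 2.98%, SD, n = 2, exact permutation test, p = 0.333). Inside the windows, 45.1 and 46.5% of siNeg peaks and 34.8 and 31.2% of siDNAJC9 peaks were 10 kb or more. The windows were placed by the length of siNeg peaks, so neither width comparison is free of the rule. The middle class of 7 to 9 kb held 59 peaks (13.3%, 10.5 to 16.8%) and 26 peaks (18.7%, 13.1 to 26.0%). The IgG list of siNeg cells had a similar make-up, with 80.9% of its 4047 peaks at 5 to 6 kb, 18.1% at 7 to 9 kb and 1.01% at 10 kb or more, from a single library.

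The widths did not fall evenly. Replicate 3 had 7 peaks of 7 kb, 7 of 8 kb and then 12 of 9 kb, and replicate 1 had 34, 13 and 12. The widest noncentromeric peaks were 15 and 16 kb, both at one place on chromosome 5. Inside the windows, where the centromeres lie, the median siNeg peak was 9 kb wide and the widest were 128 and 134 kb.

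The control replicates listed almost entirely different places. Merging the peaks of both lists gave 562 places, of which 19 (3.38%, 2.17 to 5.22%) held a peak of each replicate. These were 4.30% of the peaks of replicate 1 and 13.7% of those of replicate 3. As background, 0.153% of all 5-kb windows outside the centromere windows, taken at every 1-kb start, touched a noncentromeric peak of replicate 1, and 0.0502% touched one of replicate 3. The peaks without a partner were not near misses. Among 423 such peaks of replicate 1 and 120 of replicate 3, 3 in each had a peak of the other replicate within 10 kb.

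The share found in both replicates was higher in each wider class. In replicate 1, 2 of 375 peaks of 5 to 6 kb (0.533%, 0.15 to 1.92%), 10 of 59 peaks of 7 to 9 kb (16.9%, 9.48 to 28.5%) and 7 of 8 peaks of 10 kb or more (87.5%, 52.9 to 97.8%) lay on a peak of replicate 3. In replicate 3, the counts were 2 of 106 (1.89%), 10 of 26 (38.5%, 22.4 to 57.5%) and 7 of 7 (100%, 64.6 to 100%). Windows of the same chromosomes and widths as the replicate 1 peaks touched replicate 3 at 0.0671, 0.0938 and 0.138%. The siDNAJC9 lists also shared more of their wider peaks, with 24.4, 49.7 and 80.0% of replicate 1 peaks in these classes on a peak of replicate 3, where matched windows reached 3.63, 4.48 and 6.16%.

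Within the middle class the sharing was carried by peaks of 9 kb. This finer split was made after the values were seen. Of the 47 peaks of 7 or 8 kb in replicate 1, 2 were shared (4.26%, 1.17 to 14.2%), and of the 17 peaks of 9 or 10 kb, 13 were (76.5%, 52.7 to 90.4%). In replicate 3, 1 of 14 (7.14%) and 14 of 17 (82.4%, 58.97 to 93.8%) were shared.

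The 19 shared places had nearly the same borders in both control replicates. Start and end were identical at 14 of the 19 (73.7%, 51.2 to 88.2%), and both ends lay within 1 kb at all 19. Every one of the 13 places where replicate 1 had a peak of 9 or 10 kb had identical borders. For comparison, 11.6% (10.7 to 12.5%) of 4608 overlapping peak pairs of the siDNAJC9 replicates had identical borders, and 12.1% of those starting from a peak of 9 or 10 kb. The border positions of the siNeg lists were part of what chose the shared places, so these shares are a description.

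The merged places were 9 kb long in 9 cases and 10 kb in 5, with 2 of 6 kb and 1 each of 8, 11 and 16 kb, 178 kb in all. They lay on 7 chromosomes, and 9 of the 19 were on chromosome 4. Of those 9, 7 lay within 1 Mb of the window of chromosome 4, between 49734001 and 50166000, and the window itself starts at 50254001. The other 12 places lay further than 1 Mb from any window.

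The longest shared place was chr5:100549001-100565000, at 15 kb in siNeg replicate 1 and 16 kb in replicate 3, 49.2 Mb from the window. In siDNAJC9 replicate 1 the peak there was 7 kb wide, and siDNAJC9 replicate 3 had none. The next, chr5:95047001-95058000, was 11 kb wide in both control replicates and was in no other list.

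Of the 5 shared places of 10 kb, chr4:49873001-49883000 had a peak of 10 kb with the same width in all 4 CENP-A lists. The place chr4:49935001-49945000 was 10 kb wide in both control lists and 9 kb in both siDNAJC9 lists. On chromosome 5, chr5:135446001-135456000 was 10 kb wide in both control lists, 9 kb in siDNAJC9 replicate 1 and unlisted in replicate 3. The place chr17:53976001-53986000 was 10 kb wide in both control lists and in no other, and the nearest siDNAJC9 peak was 1010 kb away. These places thus ranged from presence in all 4 CENP-A lists to presence in the control lists alone.

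The remaining one of 10 kb, chr2:87832001-87842000, lay 3.73 Mb from its window and had a 9-kb peak in both siDNAJC9 lists and in the siNeg IgG list. It was thus also listed with the control antibody. The same was true of chr18:48040001-48049000, 9 kb wide in both control lists and in siNeg IgG, and of chr14:62148001-62154000, 5 kb wide in all 3. These were 3 of the 19 shared places (15.8%, 5.52 to 37.6%), against 1.98 and 1.99% of windows matched to their replicate 1 and 3 peaks. No shared place was on a peak of the siDNAJC9 IgG list, which such windows touched at only 2.43 and 2.44%. With 19 places, an absence at that share tells little.

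Of the 9 shared places of 9 kb, 7 were on no siDNAJC9 CENP-A peak, 1 was on a peak of 1 replicate and 1 on peaks of both. The first 3 of the 9 in genome order, chr2:33711001-33720000, chr2:49221001-49230000 and chr4:12615001-12624000, were in no other list, and the nearest siDNAJC9 peak lay 28, 501 and 79 kb away. Also in no other list were chr4:49734001-49743000, chr4:49954001-49963000 and chr4:81345001-81354000. The place on 1 siDNAJC9 list was chr4:50157001-50166000, 9 kb wide in both control lists and 7 kb in siDNAJC9 replicate 1, and the place on both was chr4:49861001-49870000, 9 kb wide in all 4 CENP-A lists.

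Of the 19 shared places, 8 (42.1%, 23.1 to 63.7%) were on a siDNAJC9 CENP-A peak, against 7.85% of all 9-kb windows outside the centromere windows, and 11 (57.9%, 36.3 to 76.9%) were on none. Of the 8, 4 were on a peak of siDNAJC9 replicate 1 alone and 4 (21.1% of the 19, 8.51 to 43.3%) on peaks of both replicates, against 2.47% of all 9-kb windows. The 4 places in all 4 CENP-A lists were chr2:87832001-87842000 and chr4:49861001-49870000, chr4:49873001-49883000 and chr4:49935001-49945000, the 3 on chromosome 4 lying 309 to 384 kb from the window. Among the 12 places further than 1 Mb from a window, 8 were on no siDNAJC9 peak, 3 on a peak of 1 replicate and 1 on both. The 11 absent places lay at a median of 75 kb from the nearest siDNAJC9 peak, with a range of 10 to 1010 kb. Whether such a place lost CENP-A or fell below the caller's threshold cannot be told apart without read counts.

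The control peaks as a whole lay on siDNAJC9 peaks more often than windows of the same width did, although most of them were on none. In replicate 1, 98 of 442 peaks (22.2%, 18.6 to 26.3%) were on a peak of siDNAJC9 replicate 1 and 80 (18.1%, 14.8 to 21.96%) on one of siDNAJC9 replicate 3. In replicate 3, the counts were 37 of 139 (26.6%, 19.97 to 34.5%) and 29 (20.9%, 14.9 to 28.4%). All 5-kb windows outside the centromere windows touched these lists at 4.41% and 3.33%. Windows of the same chromosomes and widths touched them at 5.06 and 3.89% for replicate 1 and at 5.44 and 4.18% for replicate 3. On a peak of either siDNAJC9 replicate were 110 control peaks of replicate 1 (24.9%, 21.1 to 29.1%) and 46 of replicate 3 (33.1%, 25.8 to 41.3%), against 5.94% of all 5-kb windows. The matched windows gave 6.83 and 7.33%. Peaks on both siDNAJC9 lists were 68 (15.4%) and 20 (14.4%).

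In each control replicate, the share on a siDNAJC9 peak was lowest in the class of 5 to 6 kb and highest in the class of 10 kb or more. For either siDNAJC9 list, the share in replicate 1 was 21.6% at 5 to 6 kb (81 of 375), 39.0% at 7 to 9 kb (23 of 59) and 75.0% at 10 kb or more (6 of 8). In replicate 3 it was 29.2% (31 of 106), 38.5% (10 of 26) and 71.4% (5 of 7). Longer windows also touch more peaks, at 6.91% for all 7-kb windows and 8.3% for all 10-kb windows. Windows of the same chromosomes and widths as the control peaks reached 6.59, 7.99 and 9.62% in the 3 classes of replicate 1 and 6.87, 8.63 and 9.48% in those of replicate 3. Within the middle class the share did not follow width, since peaks of exactly 9 kb, a width singled out after its values were seen, were on a siDNAJC9 peak in 4 of 12 and 3 of 12 cases, and peaks of 7 or 8 kb in 19 of 47 and 7 of 14. The step from narrow to wide control peaks was 53.4 percentage points in replicate 1 and 42.2 in replicate 3, and 34.5 and 24.9 without siDNAJC9 replicate 1. It rests on 8 and 7 wide peaks at largely the same places, 7 of which had a peak of 10 kb or more in both replicates, so the replicates do not give it independently.

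Unshared control peaks were also found on siDNAJC9 peaks. Of the peaks of 7 kb or more in a single control replicate, 22 of 50 (44.0%) in replicate 1 and 8 of 16 in replicate 3 were on a peak of either siDNAJC9 list, beside 8 of the 19 shared places. Matched windows touched either list at 7.91 and 8.52% for these unshared peaks, and at 8.63 and 8.69% for the shared ones. On siDNAJC9 replicate 3 alone the counts were 18 of 50, 6 of 16 and 4 of 19, and on both siDNAJC9 lists 17 of 50, 4 of 16 and 4 of 19. Matched windows touched siDNAJC9 replicate 3 at 4.53 and 4.87% for the unshared peaks, and 2.47% of all 9-kb windows touched both lists. The 19 shared places include 2 of 6 kb, so they are not limited to 7 kb or more as these unshared peaks are. No difference between shared and unshared peaks was tested. For unshared peaks of 5 to 6 kb, the shares on either list were 21.4% (80 of 373) and 28.8% (30 of 104), against 6.59 and 6.90% of matched windows. The widest unshared peak was chr4:145717001-145729000, at 12 kb in siNeg replicate 1, none in siNeg replicate 3, and 16 and 14 kb in the siDNAJC9 lists.

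The width of a control peak and of the siDNAJC9 peak on it were compared with no test, since 5 kb is the least width in any list and a pair picked by the width of one peak tends to differ in the other. Of 70 pairs of a 5- to 6-kb peak of siNeg replicate 1 with siDNAJC9 replicate 1, the siDNAJC9 peak was wider in 57, equal in 11 and narrower in 2. Between the siDNAJC9 replicates the same class gave 696 wider, 345 equal and 147 narrower of 1188. Of 8 pairs from a control peak of 9 to 10 kb, the siDNAJC9 peak was wider in 0, equal in 2 and narrower in 6, and between the siDNAJC9 replicates 166 were wider, 239 equal and 797 narrower of 1202. For control peaks of 7 kb or more, the siDNAJC9 peak was wider in 13, equal in 4 and narrower in 11 of 28 pairs. Between the siDNAJC9 replicates, that class gave 649 wider, 551 equal and 2220 narrower of 3420. A turn to narrower partners was thus present in both comparisons at 9 to 10 kb. At 7 kb or more it was present only between the siDNAJC9 replicates.

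Seen from the depleted cells, of the 10699 noncentromeric peaks of siDNAJC9 replicate 1, 126 (1.18%) touched a control peak, and of the 8409 of replicate 3, 105 (1.25%) did. The share of all 5-kb windows that touched a control peak of either replicate was 0.194%. By width of the siDNAJC9 peak, the share was 0.617, 1.09 and 3.33% in the 3 width classes of replicate 1 and 0.748, 1.33 and 3.73% in those of replicate 3. Windows matched to the replicate 1 peaks by chromosome and width reached 0.219, 0.278 and 0.412%, and those matched to replicate 3 reached 0.220, 0.284 and 0.424%.

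A minority of the control peaks were also listed with the control antibody. The siNeg IgG library had a peak at 43 of 442 peaks of replicate 1 (9.73%, 7.30 to 12.9%) and 15 of 139 of replicate 3 (10.8%, 6.65 to 17.04%), against 1.41% of all 5-kb windows. The siDNAJC9 IgG library had one at 15 (3.39%, 2.07 to 5.52%) and 2 (1.44%, 0.40 to 5.09%), against 2.41% of all 5-kb windows. Windows matched by chromosome and width touched siDNAJC9 IgG at 2.94% for both replicates, a share inside both intervals. Across the width classes, the siNeg IgG share was 10.4% (39 of 375), 5.08% (3 of 59) and 1 of 8 in replicate 1, and 10.4% (11 of 106), 11.5% (3 of 26) and 1 of 7 in replicate 3. Windows matched by chromosome and width to all control peaks of replicates 1 and 3 touched siNeg IgG at 1.78 and 1.89%. The part of the IgG signal in the control peaks was not tested.

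In no other list of the series were 279 of 442 control peaks of replicate 1 (63.1%, 58.5 to 67.5%) and 75 of 139 of replicate 3 (54.0%, 45.7 to 62.0%). Of all 5-kb windows, 90.6% touched no list other than that of replicate 1 and 90.5% none other than that of replicate 3. For windows matched by chromosome and width the shares were 89.0 and 88.3%. Control peaks were thus in another list more often than windows. The 332 and 93 control peaks on no siDNAJC9 peak lay at a median of 71.5 and 56 kb from the nearest one, and 51 and 15 of them were within 10 kb.

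A larger share of control peaks than of siDNAJC9 peaks lay beside the centromere windows, with peaks of 7 kb or more there largely in a cluster on chromosome 4. Within 1 Mb of a window were 14 peaks of replicate 1 (3.17%, 1.90 to 5.25%) and 17 of replicate 3 (12.2%, 7.78 to 18.7%), while this sequence is 1.58% of that outside the windows and held 0.63% of the peaks of each siDNAJC9 list. In number, siDNAJC9 peaks were still denser there, at 152 and 120 per 100 Mb against 31.8 and 38.6 for siNeg. The siNeg and siDNAJC9 IgG lists had 0.84 and 0.86% of their peaks there. On chromosome 4 were 7 of the 14 control peaks of replicate 1 and 10 of the 17 of replicate 3. Of these, 7 in each replicate were at the shared places beside the chromosome 4 window, all 7 kb wide or more. In replicate 1, 6 of 375 peaks of 5 to 6 kb (1.60%) lay within 1 Mb. So did 6 of 59 of 7 to 9 kb (10.2%) and 2 of 8 of 10 kb or more (25.0%). In replicate 3, the counts were 6 of 106 (5.66%), 9 of 26 (34.6%) and 2 of 7 (28.6%). The 2 peaks of 10 kb or more were at the same places on chromosome 4 in both replicates. Within 5 Mb the mean share was 15.5 ± 7.55% with siNeg and 5.26 ± 0.388% with siDNAJC9 (SD, n = 2), a difference of 10.3 percentage points, given with no test because the windows came from siNeg peaks. The difference was 1.05 points, with overlapping libraries, when windows were widened by 5 Mb on both sides, and 4.93 and 15.6 points without siNeg replicate 3 and replicate 1.

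Beyond 5 Mb, replicate 1 followed the available sequence closely. Its shares at 5 to 20, 20 to 50 and over 50 Mb were 20.6, 33.7 and 35.5%, and the sequence there was 22.1, 33.5 and 36.4%. Replicate 3 had 10.1, 38.1 and 30.9%. The median distance was 36.2 and 31.5 Mb.

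The control peaks nearest to a window were chr4:50157001-50166000, chr6:63384001-63392000 and chr4:49954001-49963000 in replicate 1, at 88, 210 and 291 kb. In replicate 3 they were chr8:44338001-44343000, chr9:48800001-48806000 and chr1:126588001-126597000, at 10, 31 and 40 kb. No peak crossed a window edge. Just inside one lay chr14:10093001-10113000, 20 kb wide in replicate 1, which the rule left out. The farthest in replicate 1 were chr2:231001001-231006000, chr2:233862001-233867000 and chr2:234204001-234209000, at 134.4 to 137.6 Mb. In replicate 3 they were chr1:243811001-243816000, chr2:227140001-227145000 and chr4:189220001-189225000, at 117.3 to 134.0 Mb, and all 6 were 5 kb wide. A window of 5 Mb need not hold a whole centromeric domain, and peaks of such a domain outside the window cannot be told apart from peaks of the arm by position.

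Chromosome 10 had the densest control peaks in both replicates. It held 70 and 25 peaks, or 54.0 and 19.3 per 100 Mb outside its window, against 15.9 and 4.99 over all autosomes. By the mean of both replicates, chromosome 4 followed with 31 and 23 peaks (16.5 and 12.2 per 100 Mb), and then chromosome 12 with 26 and 7 (20.3 and 5.46). Below chromosome 10 the order differed between replicates, with chromosome 2 next in replicate 1 (21.5 per 100 Mb) and chromosome 4 next in replicate 3. By the mean, the lowest densities were on chromosome 22 with 3 and 0 peaks, chromosome 21 with 2 and 1, and chromosome 9 with 11 and 4.

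From 60 Mb to the end of chromosome 10 lay 62 peaks of replicate 1 (14.0%) and 24 of replicate 3 (17.3%), on 2.68% of the sequence. None of the 19 shared places was on this chromosome. The same stretch held 5.19 and 5.64% of the siDNAJC9 CENP-A peaks and 9.24 and 10.2% of the peaks of the siNeg and siDNAJC9 IgG lists. On chromosome 10, 15 of 70 control peaks (21.4%) and 6 of 25 were on a siNeg IgG peak, against 7.53 and 7.89% on the other autosomes. Matched windows touched siNeg IgG at 3.65% on chromosome 10 for both replicates and at 1.43 and 1.51% elsewhere, so control peaks exceeded them 5.86- and 6.57-fold on chromosome 10 and 5.28- and 5.24-fold elsewhere. The part of this background in the density was not tested.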

How the data were processed

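CENP-A and IgG CUT&RUN libraries of siNeg and siDNAJC9 cells were compared as 6 peak lists. The authors trimmed reads with Cutadapt 4.0, aligned them (bowtie2 2.4.5) to the T2T-CHM13v2.0 assembly and, for the spike-in, to E. coli, removed duplicates with Picard 2.27.3 and called broad peaks with GoPeaks in each library, through CARLISLE 2.3.0. Of tools and builds, the submitters' processing notes list Bowtie, bcl2fastq and T2T-CHM13, with no version. The deposited lists hold positions only, so the spike-in factor, control library and threshold decide what is listed, and the count test of the methods could not be run on them.

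The members and lists were chosen with earlier results of these data known. Groups came from the sample labels. Chromosome X was left out. Peaks were compared by at least 1 bp in common, beside all windows of the same width at every 1-kb start. Shares carry 95% Wilson intervals, and peak widths were compared between siRNAs by exact two-sided permutation over libraries. The width tests are not free of the rule, since siNeg peak length placed the windows. The planned tests of the number and the distance of peaks are not given, since siNeg positions chose the members. Peaks were not placed in genes and no sequence was read, since no T2T-CHM13v2.0 annotation was used here. The regions named are the 10 longest shared places with ties in genome order, those on all 4 CENP-A lists, the 5 widest per replicate, the 3 nearest to and 3 farthest from a window per replicate, and the 3 chromosomes of highest and lowest density. The shared places outside these, the split at 9 kb and the stretch of chromosome 10 were chosen after their values were seen. Scripts were tested on simulated data. Python 3.11.15, numpy 2.4.6, scipy 1.17.1 and matplotlib 3.10.9 were used.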

Additional observations from a re-analysis of the deposited data

How the results depend on the processing

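Of 101 alternative values, 88 were labelled the same, 13 moved and none reversed. For comparisons between siRNAs, the same meant only the same sign, however small the difference became. Overlap shares and the step in width had to stay within the SD of the siNeg replicates, which leaving out a siNeg replicate cannot exceed. The number of shared places had to stay within a set ratio, and their siDNAJC9 share within its Wilson interval. The labels are thus a tally and not a test. The mean share of control peaks on either siDNAJC9 list (29.0%) was 40.6% for peaks of at least 7 kb, 21.4% with 50% reciprocal overlap and 19.5% without siDNAJC9 replicate 1, and leaving out 1 library at a time gave 19.5 to 33.1%. The mean step from narrow to wide peaks (47.8 percentage points) was 30.9 with windows widened by 5 Mb on both sides, 29.7 without siDNAJC9 replicate 1, and 37.6 with peaks within 1 Mb of a window left out, an alternative chosen after seeing the data. Its range without 1 library was 29.7 to 53.4. The mean siNeg IgG share (10.3%) was 5.27% for peaks of at least 7 kb, 9.18% with 50% reciprocal overlap and 7.71% without chromosome 10. The 19 shared places became 11 with widened windows and 12 without peaks within 1 Mb, of which 0% and 8.33% were on peaks of both siDNAJC9 replicates, against 21.1%. That share was 42.1% without siDNAJC9 replicate 3, which leaves 1 siDNAJC9 list to touch, and 21.1% without replicate 1.

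Without 1 library, the log2 difference in number (5.04) ranged from 4.43 to 6.10, the difference in the share of 10 kb or more (-7.94 percentage points) from -10.05 to -5.83, and the difference in the share within 5 Mb (10.3) from 4.93 to 15.6. With widened windows that last difference was 1.05 and the libraries overlapped, and for peaks of at least 7 kb the libraries overlapped in the share of 10 kb or more (-5.49). With the replicate block, these differences were 5.26, -7.94 and 10.3, where 2 pairs allow no sign-flip p under 0.5. The labels do not tie the numbers together, and same-numbered libraries deviated together with r = 0.0325 over 593 bins of 5 Mb. No value could be computed for the step in width with peaks of at least 7 kb, for the IgG share without IgG peaks, or for shared places without a siNeg replicate. The share within 5 Mb without peaks within 1 Mb was not computed. Between 1 and 5 Mb lay 7.01 and 8.63% of all noncentromeric siNeg CENP-A peaks and 4.36 and 4.90% of those of siDNAJC9. The depth of the libraries is unknown and limits every absence of a peak.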
